A study of Oryza sativa Indica Group with 2 samples.

Results

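Ascorbate peroxidases are the enzymes that reduce hydrogen peroxide to water with electrons from ascorbate. Rice has a small nuclear family of them, APX1 to APX8, whose products serve the cytosol, the peroxisome, the mitochondrion and the chloroplast. The 8 genes were looked up by their locus identifiers in the authors' deposited table of a comparison between chilled leaves of 2 rice genotypes. The table gave 15 coding-sequence models of 6 of the 8 genes, out of 5804 models of 3946 loci. It held 8.61% of the models that the authors tested, and the share of loci tested is not known. Both cytosolic, both peroxisomal and both chloroplast genes were found, and both genes of the mitochondrial group, APX5 and APX6, were absent.

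In plant cells the spent ascorbate leaves the reaction as a radical, which monodehydroascorbate reductase turns back into ascorbate. What escapes it is recovered by dehydroascorbate reductase at the expense of glutathione, which glutathione reductase restores. In the chloroplast the peroxidases remove the hydrogen peroxide that forms when the electron transport chain passes electrons to oxygen, which chilling in the light favours. The cytosolic gene APX1, also called APXa, has been studied in rice for its part in protection from chilling injury.

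The samples were leaves of indica rice seedlings about 20 days old, at the stage of 3 leaves, that had spent 6 h in a growth chamber at 10 °C, lit at 40 µmol m-2 s-1. They came from a pair of IRGA breeding lines whose designations share a stem, one labelled cold-tolerant and the other cold-sensitive. Each line gave 1 library from leaves of 9 pooled plants, and chilling was applied to both, so the data compare the lines in the cold and hold no unchilled control. There are thus no replicates for any value, no test of the genotypes was run, and the differences below lie between 2 libraries. Which line is the numerator of the deposited fold change is not stated, so the numerator is library A here, the denominator is library B, and no direction can be tied to cold tolerance. The reads of each model were recovered from the table as whole numbers, on library sizes of 12846997 for A and 12152372 for B. A level in RPM is the reads of a gene scaled to that size, not corrected for gene length, so levels of different genes are not ranked here. Ratios are on the log2 scale, A over B, negative where B was higher, with a 95% interval for counting error alone. All 3 leaf markers looked up, RBCS, CAB2R and RCA, were in the table. For RBCS (the Rubisco small subunit) levels were 2886 RPM in A against 6588 in B, and for CAB2R (a light-harvesting protein) 936 against 2209, ratios of -1.19 and -1.24 that stayed at -0.89 and -0.94 when centred. RCA (Rubisco activase) had 27181 against 28822 RPM, a ratio of -0.085 that turned to 0.22 when centred.

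The number of models tested, 67393, was worked out from the deposited p and adjusted p. A model entered the table only if its adjusted p was under 0.05 in the authors' comparison, which 8.61% of the models tested did. Each gene found therefore had to differ between the libraries, and that the 6 do is no result. Among the 6, library B was the higher one for 4 and library A for 2, beside 58.6% and 41.4% of all loci of the table. After centring on the table's median log2 ratio of -0.30 the split turned to 2 higher in B and 4 in A. All loci then stood at 50.2% and 49.8%. The split turned because both cytosolic genes changed side, though the centred interval of APX1 spans both directions. With the reads of each library scaled to the table's own totals the split stayed at 4 and 2, beside 55.8% and 44.2%. Differences of at least 0.5 log2 were found for APX3 and APX8 towards B, where 38.8% of all loci had one, and for APX7 towards A, where 18.8% had one. At least 1 log2 was reached by APX3 alone, towards B as in 17.6% of all loci, and by 0 genes towards A, as in 9.63%. The median ratio of the 6 was -0.23, against -0.31 for all loci.

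**Figure D1:**
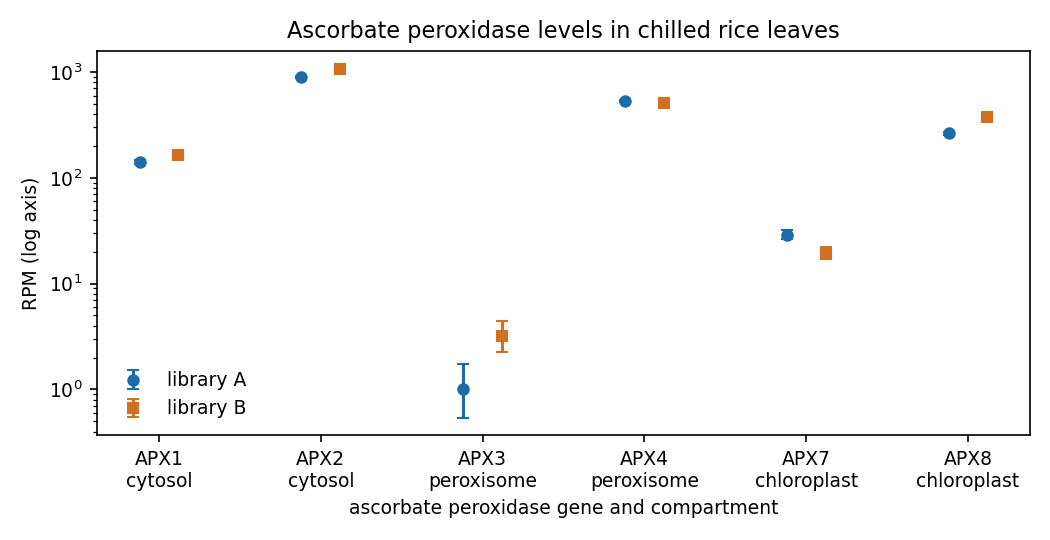
Level of the 6 ascorbate peroxidase genes found, in RPM on a log axis, in library A (circles) and library B (squares), with 95% Poisson intervals for counting error, 1 library each. APX3 lies lowest on this axis, at 1.01 (A) and 3.21 (B), and the points of APX7 and APX4 are higher in A.

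The cytosolic genes APX1 and APX2 were both slightly higher in library B. APX2 (LOC_Os07g49400) had 11573 reads in A and 12978 in B, or 901 and 1068 RPM. Its ratio was -0.25 (-0.28 to -0.21), a level 1.19-fold higher in B. The authors' deposited table gives it an edgeR adjusted p of 3.43e-38. With 1 library for each line, neither this nor the other deposited p values can measure the spread between plants. APX1 (LOC_Os03g17690) had 1828 and 2012 reads, or 142 and 166 RPM. Its ratio of -0.22 (-0.31 to -0.13) could not be told apart from that of APX2 by their counting intervals. Both ratios turned positive when centred, to 0.085 (-0.0068 to 0.18) for APX1 and 0.058 (0.022 to 0.095) for APX2. The centred interval of APX1 spans both directions. With the table's own totals the ratios were -0.018 and -0.045. The direction of both genes thus depended on the scaling.

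The balance between the cytosolic genes, which no scaling of the libraries can alter, was nearly the same in both. APX2 had 6.33 reads for each read of APX1 in library A and 6.45 in library B. On the log2 scale the ratio of APX1 to APX2 differed by 0.027 between A and B (95% Wald interval -0.071 to 0.13), an interval that holds 0 and covers counting error alone. With the model of fewest reads for each gene, APX2 had 2.42 and 2.54 reads per read of APX1, and the difference was 0.069 (-0.047 to 0.18), so the reads per gene depend on the model while the libraries stay close. The 2 genes encode similar proteins, and how reads that match several genes were counted is not given in the sources used here.

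The chloroplast genes went in opposite directions. APX8 (LOC_Os02g34810), for the enzyme bound to the thylakoid membrane, had 3405 reads in A and 4617 in B, or 265 and 380 RPM. That is a ratio of -0.52 (-0.58 to -0.46), 1.43-fold higher in B, and the edgeR adjusted p in the authors' deposited table is 1.76e-55. APX7 (LOC_Os04g35520), for the soluble enzyme of the stroma, had 373 and 239 reads, or 29.0 and 19.7 RPM. Its ratio was 0.56 (0.32 to 0.80), 1.48-fold higher in A, and its edgeR adjusted p in the authors' deposited table is 6.25e-05. Both directions held when the ratios were centred, at -0.22 for APX8 and 0.87 for APX7, and with the table's own totals, at -0.32 and 0.76. The leaf markers RBCS and CAB2R, likewise of the chloroplast, were higher in B by more than APX8 was, at -1.19 and -1.24. The remaining leaf marker RCA, also of the chloroplast, stood at -0.085 and turned to 0.22 when centred. The part of these markers in this result was not tested.

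The mix of the chloroplast pair differed between the libraries, as it must for genes that passed the authors' limit in opposite directions. That the interval below is clear of no difference is thus no further result. Library A had 9.13 reads of APX8 for each read of APX7, and library B had 19.3. The ratio of APX7 to APX8 was 2.12-fold higher in A, or 1.08 on the log2 scale (95% Wald interval 0.84 to 1.32), whatever the library scaling. With the model of fewest reads in place of that of most reads the value was 1.09.

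**Figure D2:**
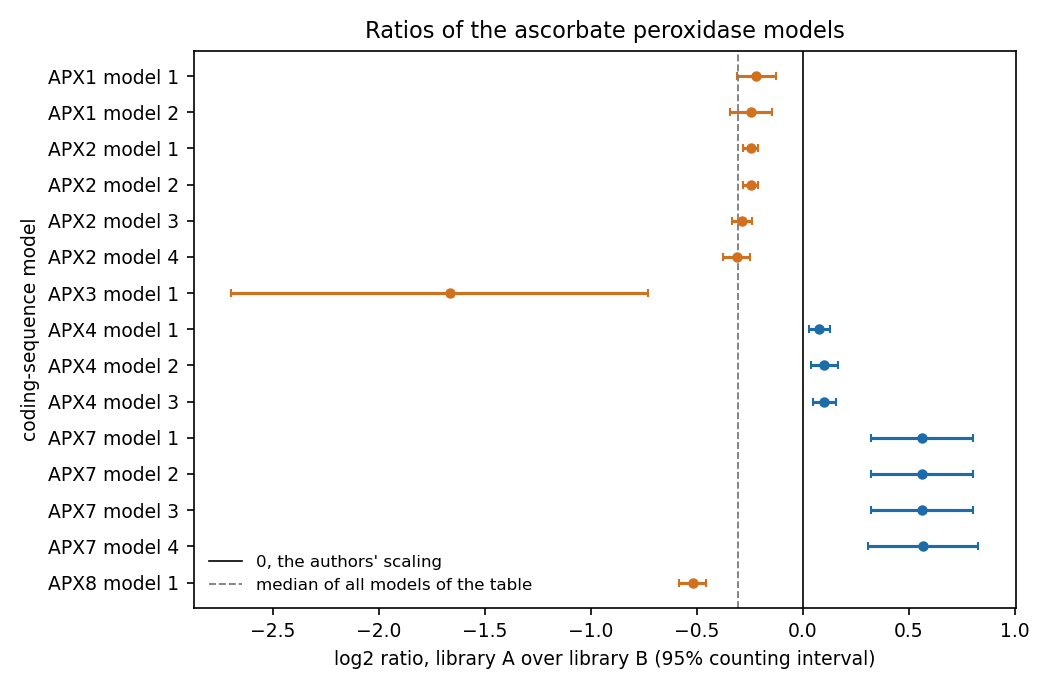
Log2 ratio of library A over library B for each of the 15 coding-sequence models, with 95% counting intervals; blue points are higher in A and orange points in B under the authors' scaling. The models of a gene lie close together, the interval of APX8 lies wholly below the dashed line of the table's median of -0.30, and the APX1 and APX2 intervals lie at or near it.

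The peroxisomal genes differed most in how well they were measured. APX4 (LOC_Os08g43560) had 6893 reads in A and 6173 in B, or 537 and 508 RPM. At 0.079 (0.029 to 0.13) its ratio was among the smallest of the table under the authors' scaling, with only 7 of 3846 loci read in both libraries closer to 0. In the authors' deposited table its edgeR adjusted p is 0.0241. The ratio stayed positive when centred, at 0.38, and with the table's own totals, at 0.28.

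APX3 (LOC_Os04g14680) rested on 13 reads in A and 39 in B, or 1.01 and 3.21 RPM. Its ratio of -1.67 was the largest of the family and also the least precise, with an interval of -2.69 to -0.73. In the authors' deposited table its edgeR adjusted p is 0.00231. Among the 109 loci with read totals within 20% of its own, the smallest absolute ratio was 1.15 and the median 1.62, since only large differences pass the limit at so few reads. A value of this size is thus ordinary for loci of that depth in the table. It kept its direction when centred (-1.36), with the table's own totals (-1.46) and with a pseudocount of 1 RPM (-1.07).

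Ordered by ratio from B to A, an order that no library scaling alters, the genes ran APX3, APX8, APX2, APX1, APX4 and APX7. Counting intervals overlapped for the neighbours APX2 and APX1 and for no other neighbouring pair of that order. The spread between plants is unknown, so this order describes the libraries.

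The pooled reads of the 6 genes came to 24085 in A and 26058 in B, or 1875 and 2144 RPM. The ratio of these sums was -0.19 (-0.22 to -0.17), and it turned to 0.11 when centred and to 0.0069 with the table's own totals, so the family as a whole had no direction that held across scalings. The division of these reads among compartments is free of scaling. Cytosolic genes took 55.6% of them in A (exact binomial interval 55.0 to 56.3%) and 57.5% in B (56.9 to 58.1%). Peroxisomal genes took 28.7% (28.1 to 29.2%) and 23.8% (23.3 to 24.4%), nearly all of it from APX4. The share of the chloroplast genes was 15.7% (15.2 to 16.2%) in A and 18.6% (18.2 to 19.1%) in B. The shares themselves depend on the model that stands for a gene, beyond their counting intervals. With the model of fewest reads the cytosol had 40.4% in A and 42.2% in B, the peroxisome 32.1% and 25.7%, and the chloroplast 27.5% and 32.1%. With either model library A had a larger part of its ascorbate peroxidase reads from the peroxisomal genes, and library B from the chloroplast and cytosolic genes. With the model of most reads, APX7 made up 1.55% of all family reads in A and 0.917% in B, and APX8 14.1% and 17.7%.

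**Figure D3:**
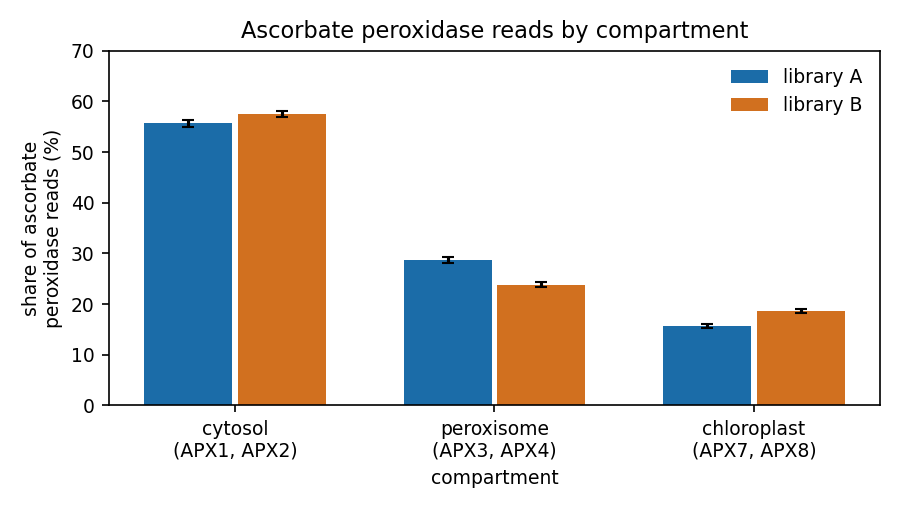
Share of the pooled reads of the 6 genes that came from each compartment, in percent, for library A (blue) and library B (orange), with 95% exact binomial intervals for counting error, with the model of most reads for each gene. The peroxisomal share is 28.7% in A and 23.8% in B, and the chloroplast share 15.7% and 18.6%.

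Of the 6 genes, 4 had more than 1 coding-sequence model in the table. Models of a gene share reads and are not separate measurements, and under the authors' scaling no gene had models of differing direction. When centred, model 4 of APX2 stood at -0.0083 and its other models at 0.018 to 0.058, so the change of side of APX2 holds for 3 of its 4 models. The 4 models of APX2 ran from 3869 reads in A and 4544 in B for model 4 to the 11573 and 12978 that models 1 and 2 had alike. Their ratios were -0.31 (-0.37 to -0.25) for model 4, -0.29 (-0.33 to -0.24) for model 3 and -0.25 for models 1 and 2, with overlapping intervals. Models 1, 2 and 3 of APX7 had identical reads, and model 4 with 318 and 203 reads had a ratio of 0.57. The 3 models of APX4 lay between 0.079 and 0.10, and the 2 models of APX1 at -0.22 and -0.24.

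APX5 (LOC_Os12g07830) and APX6 (LOC_Os12g07820) are listed here as the mitochondrial group and lie next to each other on chromosome 12. The files used here hold no value for either. A gene with few reads and a well-read gene that differed little would both be missing, and these cases cannot be told apart. For scale, among the 403 loci with about the read total of APX7 the smallest absolute ratio was 0.33, and among the 51 with about that of APX4 it was 0.071.

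Against the table as a whole the well-read genes of the family had modest ratios. The 6 absolute ratios had a median of 0.38, against 0.57 for loci read in both libraries, and the 6 had a median of 5931 reads against 626, so that smaller differences could pass the limit. Compared with loci of like read total under the authors' scaling, APX8 had a larger absolute ratio than 74 of 94, APX7 than 238 of 403, APX3 than 56 of 109, APX1 than 49 of 164, APX2 than 10 of 30 and APX4 than 2 of 51. This order depends on the scaling. When centred, APX7 exceeded 351 of 403, APX4 34 of 51, APX8 53 of 94, APX3 41 of 109, APX1 35 of 164 and APX2 4 of 30.

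**Figure D4:**
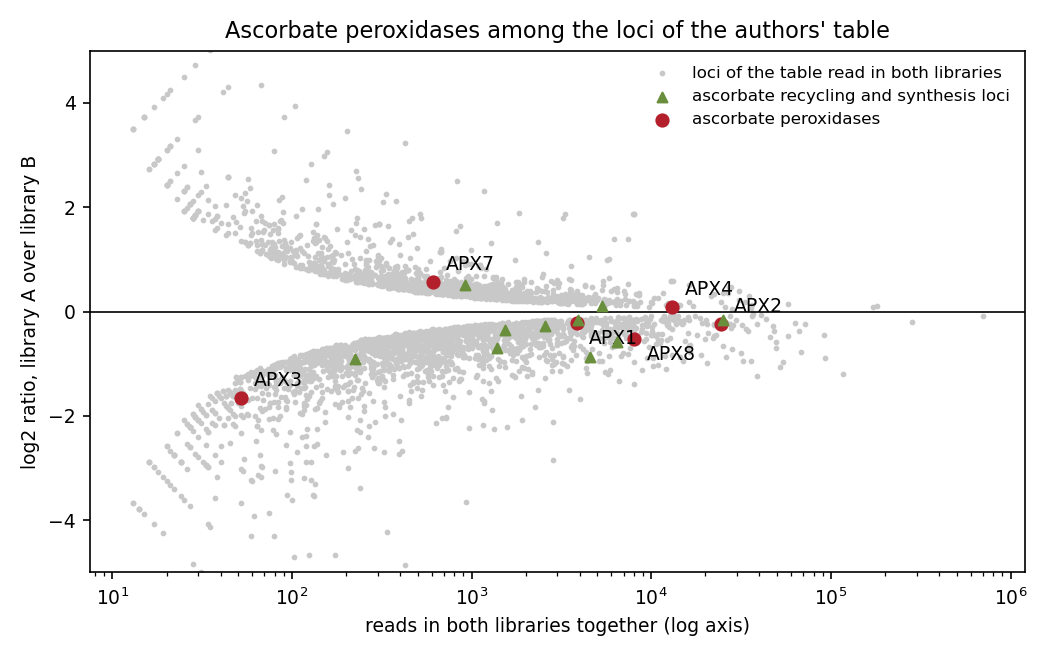
Log2 ratio of library A over library B against the reads of both libraries together (log axis) for loci of the table read in both (grey), ascorbate peroxidases (red circles) and listed loci of ascorbate recycling and synthesis (green triangles); 13 loci with an absolute ratio above 5 lie outside the plot. The empty band around 0 is set by the authors' limit and widens towards few reads, where APX3 lies.

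The loci around the members were examined as well, within 150 locus numbers on either side. Of 17 such loci in the table, 11 (64.7%) were higher in B and 6 in A, near the 58.6% and 41.4% of all table loci, and centring gave 10 and 7. The 3 table loci near APX8 were higher in A while APX8 was higher in B, as deposited, with table totals and when centred. The 4 near APX7 were higher in B as deposited and with table totals, and 3 of them when centred, while APX7 was higher in A. APX3 had no other table locus in that window.

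Other genes of ascorbate recycling and synthesis were listed by locus, 19 in all, of which 11 were in the table. Of all models tested 8.61% were in it, and the share of loci tested is not known. Well-read genes pass the limit with smaller differences, so the number found is no result about these genes. Of these, 9 had their higher level in B and 2 in A, beside 58.6% and 41.4% of all table loci. Centring gave 6 and 5, beside 50.2% and 49.8%, and the table's own totals 7 and 4, beside 55.8% and 44.2%. Of the 10 recycling loci 7 were found, 5 higher in B and 2 in A. Of the 9 synthesis loci 4 were found, all higher in B under the authors' scaling and 2 of them in each direction after centring.

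Both recycling loci higher in A encode monodehydroascorbate reductases, but not all listed reductases of this kind were higher there. MDHAR1 was higher in B. So were LOC_Os09g39380 (-0.58) and LOC_Os08g44340 (-0.69), listed for the same enzyme but unnamed in the gene table. MDHAR5 (LOC_Os08g05570) had 553 and 365 reads in A and B, or 43.0 and 30.0 RPM, with a ratio of 0.52 (0.33 to 0.71). MDHAR2 (LOC_Os02g47800) had 2829 and 2468 reads, a ratio of 0.12 (0.038 to 0.20). Its neighbour MDHAR1 (LOC_Os02g47790) was read 10 times in B and 0 times in A. Its level in B was at least 1.68-fold higher, taking the lower end of its interval in B over a floor of 3 reads, or 0.234 RPM, in A.

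The glutathione reductase gene RGRC2 (LOC_Os02g56850) had 1189 and 1360 reads in A and B and a ratio of -0.27 (-0.39 to -0.16). When centred it turned to 0.030 (-0.084 to 0.14), an interval that spans both directions. GME-2 (LOC_Os11g37890), for an epimerase of GDP-mannose in ascorbate synthesis, had 692 and 833 reads and a ratio of -0.35 (-0.49 to -0.20), which centring reduced to -0.044. The listed genes GME-1 and GLDH1, the latter for the last enzyme of synthesis, were not in the table.

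A further 6 of the 11 loci have no name in the gene table used here and are given by identifier, with roles not checked against it. All 6 were higher in B under the authors' scaling, as were 58.6% of all table loci, and only the lack of a name groups them. LOC_Os05g02530 had 1668 and 2870 reads in A and B and a ratio of -0.86 (-0.95 to -0.78). LOC_Os09g39380 stood at -0.58 (-0.66 to -0.51) and LOC_Os08g44340 at -0.69 (-0.85 to -0.54). LOC_Os03g39000, with 80 and 143 reads, had -0.92 (-1.33 to -0.51). The ratios of LOC_Os12g08810 (-0.16) and LOC_Os01g62840 (-0.16) were small, and both turned positive when centred, to 0.14 and 0.15, and with the table's own totals, to 0.037 and 0.044.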

How the data were processed

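Libraries of poly-A RNA, primed with poly-T, had inserts near 500 bp and were read from a single end over 100 bp by Illumina sequencing, per the labels' protocols. Bowtie 0.12.7 and edgeR are named in the submitters' processing notes. Not given in the sources used here are the genome build, the annotation release, the counting of reads with several matches and the use of strand, so unequal alignment of the genotypes was not tested. For each model the authors deposited a log2 mean share of reads, a log2 fold change and a p-value before and after adjustment, per the file headers.

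Reads were recovered by solving the log2 columns for each library's share, and 100% of values in both were whole within 1e-06 of their size. The recovery was tested on simulated data. The model with most reads stands for a gene. Intervals are 95% exact Clopper-Pearson for ratios and shares, exact Poisson for levels and Wald for ratios between genes. They cover counting error only, and reads copied by PCR are not independent. Where a library had 0 reads, 3 reads served as its floor. Python 3.11.15 and scipy 1.17.1 were used.

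The named genes are the 8 ascorbate peroxidases and every listed recycling or synthesis locus found in the table; members and lists were chosen with earlier results of these data known. Names were looked up in RefSeq's genes for assembly ASM3414082v1: all 8 ascorbate peroxidases and 7 of the 19 other loci matched a synonym on the same chromosome, within 3.52% and 3.22% of its length of the place that the locus number gives. This check cannot tell adjacent genes apart. Compartments are field knowledge. No sequences are shown.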

Additional observations from a re-analysis of the deposited data

How the results depend on the processing

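Balances between genes, family shares and sums, and rescaled listed loci, neighbours and models were chosen after seeing the data. When centred on the table's median, APX1 turned to 0.085 and APX2 to 0.058, and APX4, APX7 and APX8 moved to 0.38, 0.87 and -0.22. The summed reads turned to 0.11 for all 6 genes and 0.062 for the cytosol, and LOC_Os02g56850, LOC_Os12g08810 and LOC_Os01g62840 to 0.030, 0.14 and 0.15. With the table's own totals APX1, APX2, APX4 and APX8 moved to -0.018, -0.045, 0.28 and -0.32, the sum of 6 genes turned to 0.0069, and LOC_Os12g08810 and LOC_Os01g62840 to 0.037 and 0.044. Both scalings shift every ratio alike towards A. APX2 was -0.29 by model 3 and -0.31 by model 4, and model 4 stayed negative when centred.

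The counts of ascorbate peroxidases higher in A and B, 2 and 4, became 4 and 2 when centred. They became 1 and 2 when differences of 0.5 log2 or more were asked for, and 0 and 1 (APX3) with a minimum of 1 log2. By model they were 7 and 8, which follows the number of models that each gene has. Models of a gene share reads, and the share over all models was not worked out. For recycling and synthesis loci, 2 and 9 became 5 and 6 when centred, beside 49.8% and 50.2% of all table loci. They became 4 and 7 with table totals (44.2% and 55.8%) and 1 and 5 with a minimum of 0.5 log2 (18.8% and 38.8%). With 1 log2 they became 0 and 1 (9.63% and 17.6%). That 1 locus is MDHAR1, which had 0 reads in A and so no finite ratio, and it also counts among the 5. With the floor of 3 reads in A, MDHAR1 was at least 1.68-fold higher in B, a bound short of 1 log2. Of the 2 peroxisomal genes 0 passed an adjusted p of 0.001 and 1 had at least 100 reads. With the model of fewest reads, the share in A minus that in B went from 4.83 to 6.40 points for the peroxisome and from -2.95 to -4.60 for the chloroplast. Apart from centring and the table's totals, whose shift is built in, and thresholds, which leave fewer genes, the cause was not tested. No paired analysis was possible because there is only 1 library for each genotype. The depth of reads limits APX3 most.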
